A study of Drosophila melanogaster with 7 samples.

Results

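The 10 genes described here encode nuclear receptors of Drosophila melanogaster that lie downstream of the ecdysone receptor EcR or act beside it: Eip78C, Hr3, Hr4, Hr39, ftz-f1, Hr38, Hr78, Hr96, ERR and Hnf4. Their probes were taken by name, as every probe whose annotated symbol, current RefSeq name or synonym was 1 of the 10. This rule used no measured value, but the 10 genes were chosen with earlier results of these data known. All 10 genes were measured, by 14 of the 14569 probes on the array, and they are 10 of 11606 genes that a probe could be named for. Hr39 had 3 probes, Hr4 and Hr38 had 2 each, and the other 7 genes had 1. The first Hr4 probe was annotated as CG3600, a locus tag that the RefSeq gene table now lists under Hr4, and the second Hr4 probe carried both names.

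Nuclear receptors are transcription factors that bind DNA through zinc fingers, and many of them are switched by a small fat-soluble ligand. At the end of larval life a pulse of the steroid hormone ecdysone acts in the salivary gland through EcR and its partner usp, and this sets off a cascade in which further nuclear receptors are induced and switch one another on and off. The gland is the classic tissue for this cascade, because the target genes can be seen as puffs on its giant chromosomes. Other receptors of the family sense lipids, sterols and fuel supply, and control metabolic genes.

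Total RNA of salivary glands from crawling larvae of the last instar was compared on 7 two-colour arrays, each holding a different pair of samples that the design text calls independently generated. The glands with cleaved Rad21 carried w1118, hs-TEV over a wild-type chromosome, and Rad21(TEV) on a Rad21ex15 chromosome over Rad21ex3, so that their Rad21, the subunit that closes the cohesin ring, carried sites for the TEV protease and a myc10 tag. The intact glands had a Rad21 without such sites. On arrays 1.1, 1.2 and 1.3 it was genomic Rad21 over Rad21ex3, and on arrays 2.1 to 2.4 it was the transgene tgRad21 on a Rad21ex3 chromosome over Rad21ex3. All glands thus shared the w1118 background, 1 copy of the heat-inducible protease transgene hs-TEV, a Rad21ex3 chromosome, a heat shock of 45 min at 37 °C and a recovery of 10 to 12 h at room temperature ahead of RNA extraction. The cleaved and intact glands came from different stocks, and differences between the stocks cannot be told apart from cleavage of Rad21. Nor can fewer cells of a type be told apart from less RNA per cell, since RNA came from whole glands.

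Every value below is a log2 ratio between the paired samples, with the sign as deposited. A ratio carries no level, so the receptors cannot be ranked by abundance and no probe could be set against its background. The labelled tissue could be checked only through differences in its markers. Some different genes held the same ratio on an array to the last digit, such as a probe of Cyp18a1 and Mal-A1 on array 1.1 (−0.32). Whether such values were set at a signal floor was not tested. The sources used here do not say which sample was the numerator. A negative ratio likely stands for less transcript in the cleaved glands, on the basis that EcR was negative on all 7 arrays and that fly neurons that lack cohesin function are known to have less EcR. If the true direction is the opposite, each size and count stays and each sign turns. Ratios were tested against 0 with limma, with a dye term. The p-values were adjusted by Benjamini-Hochberg over the 14569 probes of the array, and a probe passed the test where the adjusted p was under 0.05.

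Of the 10 receptor genes, Eip78C and Hr78 had negative ratios past the test, ftz-f1 had a positive ratio past the test, and the other 7 genes did not pass. Counted by probe, 3 of 14 passed, against 7.95% of all probes on the array. The 2 negative probes stand beside 3.8% of all probes called negative, and the 1 positive probe beside 4.15% called positive. The median fitted ratio of the 14 probes was −0.37, against 0.02 over all probes, and their median absolute ratio was 0.47, against 0.21 over all probes. In the medians of the 14 probes Hr39 counts 3 times and Hr4 and Hr38 2 times each, with fitted means of their probes of −0.71, −0.37 and 0.05. Hr78 and ftz-f1 had 1 sign on all 7 arrays, which makes 2 of 14 probes, while 11.7% of all probes on the array did the same.

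**Figure D1:**
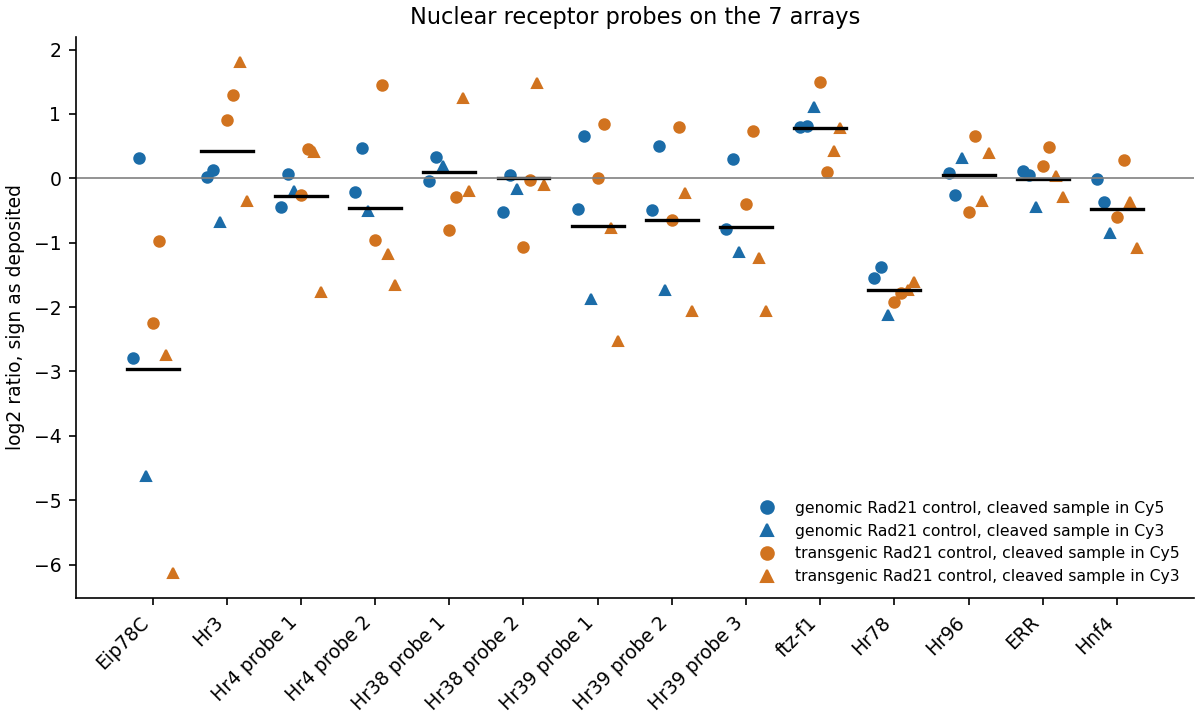
Log2 ratio of each of the 14 receptor probes on each of the 7 arrays (vertical axis, sign as deposited), with colour for the control type, shape for the dye of the cleaved sample, and a bar at the fitted ratio. The 7 points of Hr78 lie close together between −2.12 and −1.38, whereas those of Eip78C spread between −6.13 and 0.31, and the points of most other probes lie on both sides of 0.

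Eip78C, an ecdysone-induced receptor named for its puff, had the most negative fitted ratio of the 10 genes. On the genomic Rad21 arrays its ratios were −2.79, 0.31 and −4.62, and on the transgenic Rad21 arrays they were −2.25, −0.97, −2.75 and −6.13. The gene was thus far below 0 on 5 arrays, mildly below on array 2.2 and slightly above on array 1.2. The fitted ratio was −2.96 ± 0.47 (SE, n = 7 arrays, adjusted p = 0.00928 with limma), a 7.80-fold difference, with a 95% interval between −4.05 and −1.88. Among all probes of an array, Eip78C stood between percentiles 0.0618 and 9.49 on 6 arrays and at percentile 81.9 on array 1.2. Its spread over the arrays (SD 2.15) exceeded that of most probes, standing at percentile 98.7, where the median probe had an SD of 0.57. With each array left out in turn the fitted ratio lay between −3.40 and −2.56 and still passed the test each time (limma adjusted p between 0.00971 and 0.0391). Array 1.2 had the smallest scaled median absolute deviation over all probes, 0.30, and the highest limma array weight, 5.79. With array weights the fitted ratio of Eip78C was −2.85 ± 0.53 and passed (limma adjusted p = 0.0110). With a dye term, the fitted ratio is the midpoint between the means of the Cy5 and the Cy3 arrays. The high weight of array 1.2 thus acted on its ratio only within the mean of the Cy5 arrays.

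Eip78C averaged lower with the cleaved sample in Cy3. The mean ratio was −1.43 on the 4 arrays with the cleaved sample in Cy5 and −4.50 on the 3 arrays with it in Cy3. The dye term of 1.54 had an unadjusted limma p of 0.0115 and an adjusted p of 0.499, and over the whole array 0 probes passed the adjusted test of that term while 1445 had an unadjusted p under 0.05. Without the dye term the ratio of Eip78C was −2.74 ± 0.66 and passed at a limma adjusted p of 0.0374.

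Hr3, the receptor that represses early genes and activates ftz-f1 in the fly's prepupal cascade, did not pass the test. Its ratios were 0.02, 0.13 and −0.68 on the genomic Rad21 arrays, and 0.91, 1.29, 1.80 and −0.36 on the transgenic Rad21 arrays. The highest 3 values all came from transgenic Rad21 arrays, but array 2.4 of that set was negative, so the ranges of the control types overlap. The fitted ratio over 7 arrays was 0.42 ± 0.32 (SE, adjusted p = 0.586 with limma).

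Hr4, a receptor of the ecdysone cascade that bears on the timing of metamorphosis, was read by 2 probes that did not pass. The first gave −0.44, 0.06 and −0.19 on the genomic Rad21 arrays and −0.25, 0.46, 0.41 and −1.77 on the transgenic Rad21 arrays, with a fitted ratio of −0.28 ± 0.26 (limma adjusted p = 0.685). The second gave −0.21, 0.47 and −0.50 on the genomic Rad21 arrays and −0.96, 1.45, −1.17 and −1.66 on the transgenic Rad21 arrays, with a fitted ratio of −0.46 ± 0.29 (limma adjusted p = 0.479). The probes had the same sign on 6 of 7 arrays and parted on array 2.3, where they lay 1.58 apart, against a median gap of 0.41. Both were lowest on array 2.4 and highest on array 2.2.

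Hr39, a receptor of the ftz-f1 class that binds the same kind of DNA site as ftz-f1, was read by 3 probes, none of which passed. Probe 1 gave −0.47, 0.66 and −1.88 on the genomic Rad21 arrays and 0.01, 0.84, −0.77 and −2.53 on the transgenic Rad21 arrays. Probe 2 gave −0.49, 0.50 and −1.73 on the genomic Rad21 arrays and −0.65, 0.79, −0.23 and −2.06 on the transgenic Rad21 arrays. Probe 3 gave −0.78, 0.30 and −1.14 on the genomic Rad21 arrays and −0.40, 0.74, −1.24 and −2.06 on the transgenic Rad21 arrays. All 3 probes were highest on array 2.2, next highest on array 1.2 and lowest on array 2.4, and the next lowest was array 1.3 for probes 1 and 2 and array 2.3 for probe 3. They had 1 sign among them on 6 of 7 arrays, and a median gap of 0.47 between the highest and the lowest probe.

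The fitted ratios of Hr39 were −0.73 ± 0.25, −0.65 ± 0.28 and −0.76 ± 0.22 for probes 1, 2 and 3 (SE, n = 7 arrays, limma adjusted p of 0.129, 0.236 and 0.0818). The mean of the 3 probes, fitted over genes, was −0.71 ± 0.24 (limma adjusted p = 0.119). Each probe averaged lower where the cleaved sample was in Cy3. For probe 1 the mean was 0.26 on the 4 Cy5 arrays and −1.73 on the 3 Cy3 arrays, for probe 2 it was 0.04 on the Cy5 and −1.34 on the Cy3 arrays, and for probe 3 it was −0.04 on the Cy5 and −1.48 on the Cy3 arrays. The unadjusted limma p of the dye term was 0.00407, 0.0371 and 0.0114 for the 3 probes, and the lowest adjusted p among them was 0.463. Eip78C and the 3 Hr39 probes were the 4 of 14 probes with an unadjusted limma p under 0.05 for that term, against 1445 of the 14569 probes of the array.

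The gene of ftz-f1, the competence factor that lets prepupal tissue answer the next ecdysone pulse, was the only one of the 10 with a positive ratio past the test. Its ratios were 0.79, 0.81 and 1.11 on the genomic Rad21 arrays, and 1.50, 0.09, 0.42 and 0.78 on the transgenic Rad21 arrays. All 7 values lay above 0, though array 2.2 barely did. The fitted ratio was 0.78 ± 0.19 (SE, n = 7 arrays, adjusted p = 0.0450 with limma), a 1.72-fold difference, with a 95% interval between 0.34 and 1.22. Among all probes of each array, ftz-f1 stood between percentiles 87.2 and 96.6 on 5 arrays, at percentile 49.0 on array 2.2 and at 58.3 on array 2.3. The call was lost when any array other than 2.2 was left out (limma adjusted p between 0.0542 and 0.133, with fitted ratios between 0.67 and 0.87), and kept without array 2.2 (0.90, limma adjusted p = 0.0355). It was also lost after the arrays were centred on their medians (limma adjusted p = 0.0785).

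Of the prepupal genes that ftz-f1 is known to act on, Edg78E, Edg84A and Edg91 were measured and 0 of 3 passed the limma test. Edg91, a cuticle protein gene, lay at 0.82 ± 0.26 (limma adjusted p = 0.108) and was positive on 6 of 7 arrays, and Edg84A lay at −0.08 ± 0.30. Edg78E lay at −0.25 ± 0.32. The −1.18 of Edg84A on array 2.1 equalled, to the last digit, a ratio of another gene. Ratios do not show whether the 3 genes were expressed in the gland, so the count gives no reading of ftz-f1 output.

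Hr38, the fly NR4A receptor, which can pair with usp in place of EcR, was read by 2 probes that did not pass. The first gave −0.05, 0.33 and 0.19 on the genomic Rad21 arrays and −0.80, −0.29, 1.24 and −0.20 on the transgenic Rad21 arrays, and the second gave −0.53, 0.05 and −0.17 on the genomic Rad21 arrays and −1.06, −0.03, 1.47 and −0.10 on the transgenic Rad21 arrays. Array 2.3 was the highest for both probes and array 2.1 the lowest. These arrays were also the highest and lowest for some marker genes of other tissues, though not for all. Such were Jon25Bi and Mal-A1 of the gut list and NimC1 of the hemocyte list. Without a signal level, the likeness of the Hr38 probes does not show that they read Hr38 transcript. The probes lay a median of 0.26 apart and had the same sign on 6 of 7 arrays. Their fitted ratios were 0.10 ± 0.22 and 0.01 ± 0.24 (limma adjusted p of 0.890 and 0.995).

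Hr78, an orphan receptor required for growth and molting of larvae in the fly, had the lowest adjusted p of the 10 genes. Its ratios were −1.55, −1.38 and −2.12 on the genomic Rad21 arrays, and −1.91, −1.78, −1.73 and −1.61 on the transgenic Rad21 arrays. Every array was clearly below 0, the ranges of the control types overlapped, and the dye made little difference, with means of −1.66 on the 4 Cy5 arrays and −1.82 on the 3 Cy3 arrays. The fitted ratio was −1.74 ± 0.14 (SE, n = 7 arrays, adjusted p = 0.000626 with limma), a 3.33-fold difference, with a 95% interval between −2.06 and −1.41. On each array Hr78 stood between percentiles 1.14 and 5.85 of all probes. Its spread over the arrays (SD 0.25) was at percentile 5.39 of the spreads of all probes. The ratio lay between −1.79 and −1.66 with each array left out in turn and passed the test each time (limma adjusted p between 0.00221 and 0.00463).

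Hr96, a receptor that senses cholesterol and other lipids and controls their uptake from food, did not pass. Its ratios were 0.08, −0.26 and 0.31 on the genomic Rad21 arrays, and −0.52, 0.66, −0.35 and 0.39 on the transgenic Rad21 arrays. Values fell on both sides of 0 in both control types. The fitted ratio was 0.05 ± 0.18 (limma adjusted p = 0.946), with a 95% interval between −0.37 and 0.48. The lipase gene mag, which Hr96 is known to control in the gut, lay at −0.11 and was the 1 measured gene of the Hr96 list, with 0 called by limma. The 0.79 of mag on array 2.3 equalled, to the last digit, a ratio of another gene.

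ERR, the estrogen-related receptor that directs carbohydrate metabolism in growing larvae, had the smallest spread after Hr78. Its ratios were 0.11, 0.05 and −0.45 on the genomic Rad21 arrays, and 0.19, 0.49, 0.03 and −0.29 on the transgenic Rad21 arrays. The values scattered around 0, with an SD of 0.31 at percentile 12.2 of all probes. The fitted ratio was −0.01 ± 0.14 (limma adjusted p = 0.980), and its 95% interval, between −0.33 and 0.30, bounds the difference more tightly than for any other of the 10 genes. Among genes of glycolysis and the pentose phosphate pathway that ERR directs in larvae, 10 of 14 were measured by 11 probes. Of these probes 0 passed the test, and their median was −0.17. Ald1, the aldolase gene, was the most negative, at −0.68 ± 0.24 (limma adjusted p = 0.136), and Pgd, of the pentose phosphate pathway, the most positive, at 0.28 ± 0.17.

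Hnf4, the receptor that drives fat oxidation in starved larvae and insulin secretion in adults, was negative on 6 of 7 arrays and did not pass. Its ratios were −0.01, −0.37 and −0.86 on the genomic Rad21 arrays, and −0.59, 0.28, −0.36 and −1.08 on the transgenic Rad21 arrays. The fitted ratio was −0.47 ± 0.16 (limma adjusted p = 0.138), with a 95% interval between −0.85 and −0.09. With limma's array weights the ratio was −0.59 and passed (adjusted p = 0.0355).

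Among fat oxidation genes that Hnf4 directs, 7 of 10 were measured by 7 probes, of which 1 was called positive and 0 negative, with a median of 0.21. The called gene was whd, the carnitine palmitoyltransferase that admits long-chain fatty acids to mitochondria, at 1.82 ± 0.14 (limma adjusted p = 0.000465). It lay between 1.45 and 2.11 on the 7 arrays and passed with each array left out in turn. The next was yip2, a thiolase gene, at 0.92 ± 0.24 (limma adjusted p = 0.0581), positive on 6 of 7 arrays. The other 5 genes lay between −0.02 and 0.30.

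**Figure D2:**
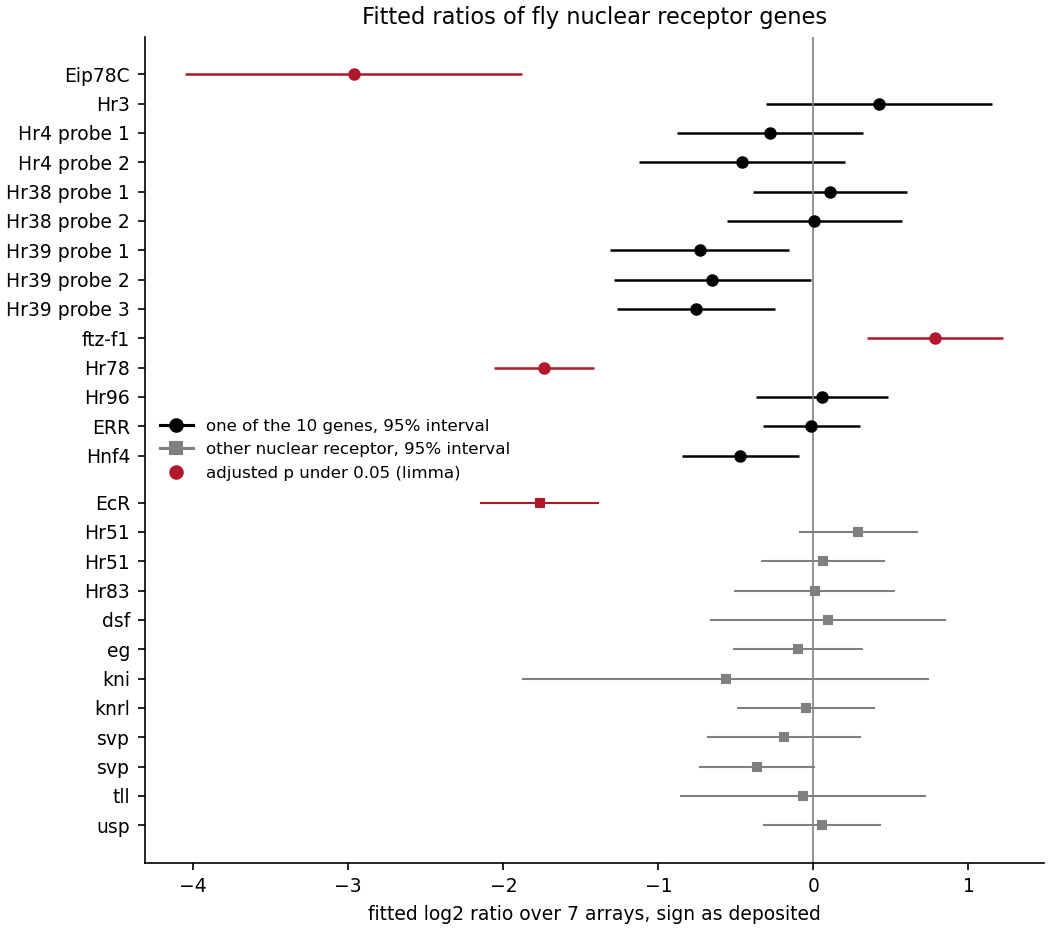
Fitted log2 ratio over the 7 arrays with its 95% interval (horizontal axis, sign as deposited) for the 14 probes of the 10 receptor genes, above the 12 probes of the other measured nuclear receptor genes. Probes past the limma test are in red. Eip78C, Hr78 and EcR stand apart on the negative side, and the intervals of most other probes include 0.

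Ordered by the fitted ratio, the 95% interval of Eip78C overlaps that of Hr78, and the interval of Hr78 ends below those of the other 12 probes. At the positive end the interval of ftz-f1 overlaps those of Hr3, Hr38 and Hr96. The intervals of 7 probes (Hr3, Hr4, Hr38, Hr96 and ERR) include 0, and those of 4 probes (Hr39 and Hnf4) exclude 0 although these did not pass after adjustment over the array.

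Of the nuclear receptor genes outside the 10, 10 of 11 were measured by 12 probes, and 1 probe was called, that of EcR, at −1.77 ± 0.17 (limma adjusted p = 0.00111). The median of the 12 probes was −0.06. The partner gene usp, which EcR needs to bind DNA, lay at 0.05 ± 0.17 (limma adjusted p = 0.934). Eip75B was not analysed here. The lowest of the probes not called was kni, at −0.57 ± 0.57, and the highest was a probe of Hr51, at 0.29 ± 0.17.

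EcR was also the gene whose 7 ratios were most like those of Hr78. Likeness was measured as the root mean square difference in log2 ratio over the 7 arrays, and it is a description. Each other gene was taken as the mean of its probes, so single probes of genes with several, such as br, were not compared. For Hr78 this difference was 0.275 for EcR, 0.340 for fusl and 0.361 for Dysb, which encodes a subunit of a complex in lysosome biogenesis, against a median of 1.86 over the 11605 other genes. EcR had −0.98, −1.46 and −1.96 on the genomic Rad21 arrays and −2.14, −1.89, −1.93 and −1.86 on the transgenic Rad21 arrays. Hr78 lay below EcR by 0.57 on array 1.1 and by 0.16 on array 1.3, and above it on the other 5 arrays by up to 0.25.

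The genes nearest to Eip78C were much farther off, at 1.01 for SoxN, a transcription factor of the developing nervous system, 1.05 for Tbc1d22, and 1.11 for Drsl4, of the drosomycin family of antifungal peptides (median 3.43 over all other genes). SoxN and Tbc1d22 shared with Eip78C a highest value above 0, at 1.43 and 0.64. The genes nearest to ftz-f1 were CG4199 at 0.232, CG16700 at 0.265 and unk at 0.276, against a median of 1.13.

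**Figure D3:**
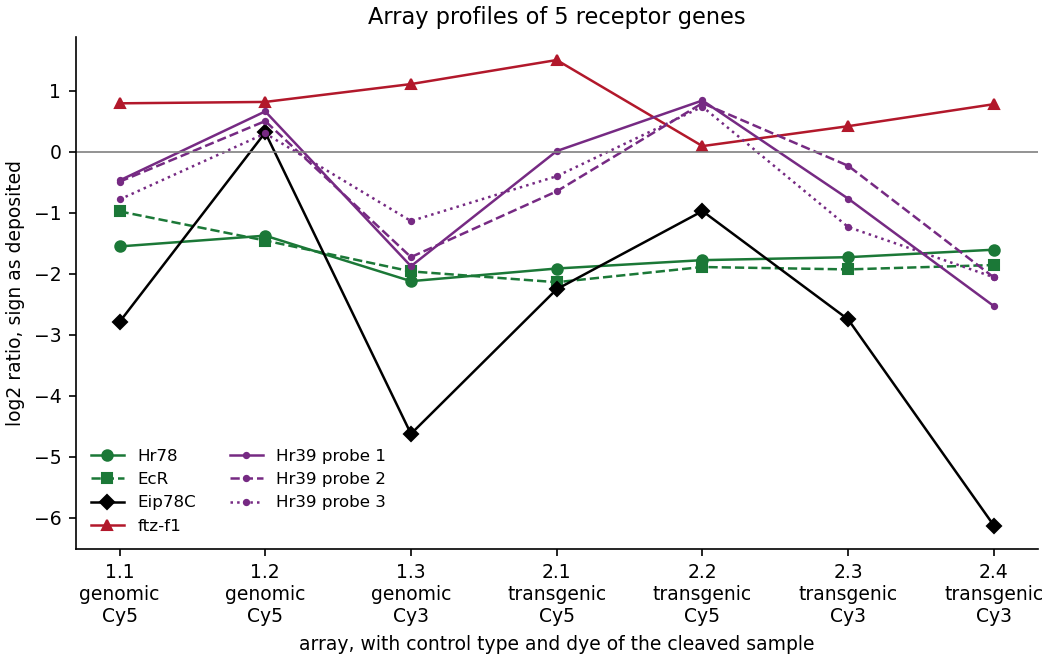
Log2 ratio (vertical axis, sign as deposited) of Hr78, EcR, Eip78C, ftz-f1 and the 3 Hr39 probes on the 7 arrays (horizontal axis, with control type and dye of the cleaved sample), the lines only joining values of a probe. Hr78 and EcR run close together below 0, the Hr39 probes turn positive on arrays 1.2 and 2.2 where Eip78C has its highest values, and ftz-f1 stays above 0.

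Many receptor probes were high or low on the same arrays. On array 2.4, 12 of 14 probes were negative, with a median of −1.34, and on arrays 1.3, 1.1, 2.1 and 2.3 the counts were 11, 10, 10 and 8. On arrays 1.2 and 2.2 they were 3 and 4 of 14, with medians of 0.22 and 0.47. Over all probes of the array the share with a negative ratio was 43.7% on array 1.2 and 44.0% on array 2.2, and it lay between 38.2% and 60.3% on the other 5 arrays, with 59.9% on array 2.4. Array 2.4 was the lowest for 7 of the 14 probes and array 2.2 the highest for 8, and each count includes the 3 Hr39 and the 2 Hr4 probes. The share of all probes with an extreme on these arrays was not worked out, so the counts are a description only. The medians of all probes on these arrays were −0.15 and 0.11. The part of these array-wide shifts in the receptor values was not tested beyond the centring given with the processing alternatives.

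Split by control type, Hr78 was past the test against each control. It had −1.71 ± 0.24 on the 3 genomic Rad21 arrays (limma adjusted p = 0.0360), where it was the 1 receptor probe called among 14 and 0.666% of all probes were called. It had −1.76 ± 0.20 on the 4 transgenic Rad21 arrays (limma adjusted p = 0.00654), again the 1 of 14, where 3.81% of all probes were called. Eip78C had −2.88 ± 0.78 against genomic Rad21 (limma adjusted p = 0.205) and −3.03 ± 0.66 against transgenic Rad21 (limma adjusted p = 0.0562). The fit shares its dye term between the control types, and the plain mean of Eip78C on the genomic Rad21 arrays was −2.37. The ratio of ftz-f1 was 0.90 ± 0.31 against genomic Rad21 (limma adjusted p = 0.319) and 0.70 ± 0.26 against transgenic Rad21 (limma adjusted p = 0.224).

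The difference between the control types, genomic minus transgenic, passed for 0 of 14 receptor probes, at an adjusted and also at an unadjusted limma p under 0.05, and for 0 of 14569 probes after adjustment, with 621 at an unadjusted p under 0.05. Without the dye term 1 probe of the array and 0 receptor probes passed after adjustment. For Hr78 it was 0.05 ± 0.31, with a 95% interval between −0.68 and 0.77. For Eip78C it was 0.15 ± 1.02, between −2.25 and 2.55, and for ftz-f1 0.21 ± 0.41, between −0.75 and 1.17. Without the dye term the difference for Eip78C was 0.66 ± 1.40. Hr3 had the largest difference of the 10 genes, at −0.26 ± 0.40 on the genomic Rad21 arrays and 0.91 ± 0.34 on the transgenic Rad21 arrays, a difference of −1.17 ± 0.53 with a 95% interval between −2.41 and 0.07 (limma unadjusted p = 0.0603, adjusted p = 0.9998). After median centring its difference was −1.21 ± 0.45 (limma unadjusted p = 0.0298). The intervals of Eip78C, Hr3, Hr4, Hr38, Hr39 and ftz-f1 reach beyond 1 in size on at least 1 side, so a difference of that size between the controls lies within the error of 3 and 4 arrays.

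**Figure D4:**
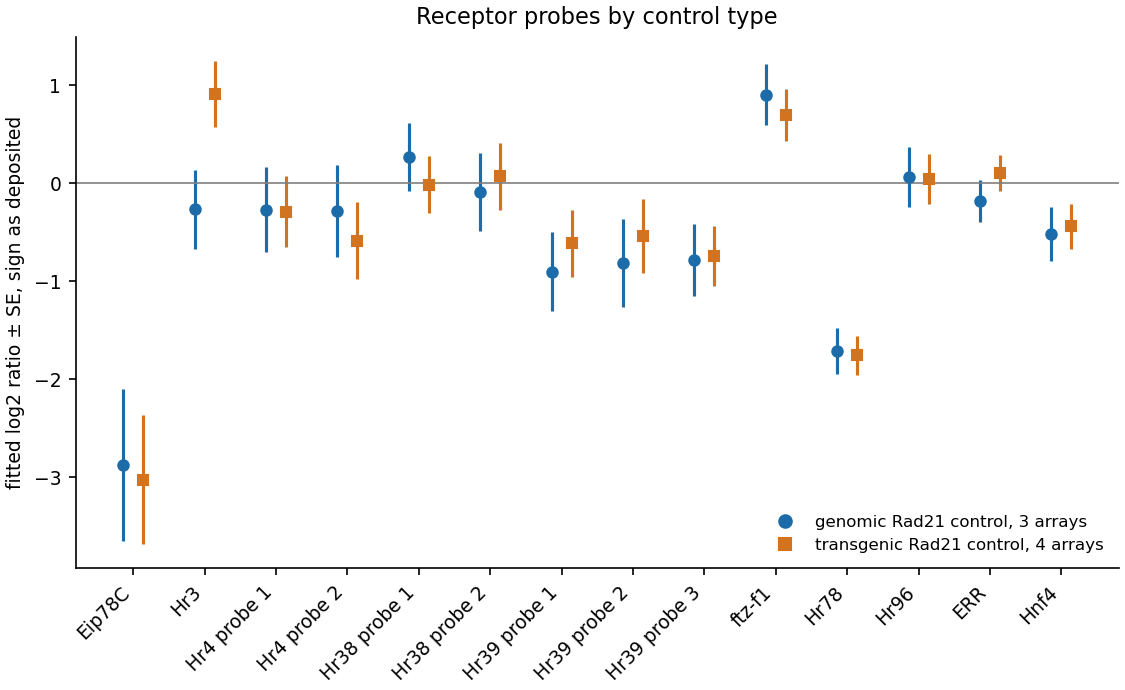
Fitted log2 ratio with its SE (vertical axis, sign as deposited) of each receptor probe on the 3 arrays with a genomic Rad21 control and on the 4 arrays with a transgenic Rad21 control, from 1 fit over 7 arrays. Hr78 has nearly the same value against each control, and the values of Hr3 lie on opposite sides of 0.

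In the genome the 10 genes are spread over the chromosome arms X, 2L, 2R, 3L and 3R. Eip78C and Hr78 lie on the same arm, 3L, with 31 measured genes between them. Of the 32 probes of these genes, 2 were called, which is 6.25% (limma, against 7.95% of all probes), and their median was −0.01. The called genes, named after their values were seen, were Cpr78Ca, a cuticle protein gene, at −1.45 ± 0.28, and AcCoAS, the acetyl-CoA synthetase gene, at 1.35 ± 0.32. Each lost its call when array 1.1, 1.2, 1.3, 2.1 or 2.4 was left out (limma adjusted p up to 0.0626 for Cpr78Ca and up to 0.145 for AcCoAS).

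The nearest measured genes on each side of a receptor gene, 2 per side and 40 in all, had 2 of 41 probes called, or 4.88%, and a median of −0.03. Next to Hr3 stood mlt, of the tubulin cofactor family, at 3.05 ± 0.37, positive on 7 of 7 arrays and past the test with each array left out in turn (limma adjusted p = 0.00282 on all arrays). PrBP, beside Hnf4, lay at 0.53 ± 0.13 (limma adjusted p = 0.0477) and lost its call whichever single array was left out. Neither neighbour lies beside Eip78C, Hr78 or ftz-f1, whose own nearest 4 genes each held 0 called probes.

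Among other regulators of the ecdysone response, 10 of 14 genes were measured by 17 probes, of which 4 were called negative and 0 positive, with a median of −0.40. The calls came from br, the Broad zinc finger factors that open the response, with 3 of 6 probes between −1.81 and −0.94, and from vri, a bZIP repressor. The third of the br calls, at −0.94 ± 0.16, was lost without array 2.4, and vri, at −1.08 ± 0.22, lost its call without array 1.2, 1.3 or 2.4. Eip74EF, crol, Eip55E and Eip71CD were not analysed here.

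Coregulators that nuclear receptors recruit were measured for 9 of 11 genes by 9 probes, of which 1 was called negative and 0 positive, with a median of −0.06. The called gene was tai, the coactivator taiman that binds EcR, at −0.91 ± 0.18 (limma adjusted p = 0.0197), negative on 6 of 7 arrays. It lost its call without array 1.2 or 2.4. Smr, a corepressor of EcR, lay at −0.44 ± 0.15 (limma adjusted p = 0.128) and was negative on 7 of 7 arrays. The ftz-f1 coactivator gene mbf1 lay at −0.54 ± 0.16 (limma adjusted p = 0.0886), and the chromatin remodeller gene Iswi lay at 0.53 ± 0.17 and was positive on 7 of 7 arrays.

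Markers of the gland and of tissues that could be dissected with it were counted in the same way. Of 8 salivary gland probes, 3 were called negative and 0 positive, with a median of −0.64: the glue gene Sgs1 at −6.21 ± 0.31, the gland-specific transcription factor gene sage at −1.13 ± 0.17, and Eig71Ee at −0.80 ± 0.20, whose call was lost when any array other than 1.1 was left out. After centring and scaling of the arrays 1 of the 8 was called, as sage and Eig71Ee lost their calls. The list spanned −6.21 to 1.25, and its highest genes were PH4alphaSG1, at 1.25 ± 0.36 (limma adjusted p = 0.0782, positive on 6 of 7 arrays), and PH4alphaSG2, at 0.75 ± 0.50 (positive on 5 of 7 arrays). The transcription factor gene fkh, also of this list, lay at −0.01 ± 0.25. Of its glue genes not called, Sgs5 lay at −1.06 ± 0.29 (limma adjusted p = 0.0683, negative on 7 of 7 arrays). Sgs4 lay at −0.48 ± 0.17 (negative on 5 of 7 arrays). Of 7 fat body probes 1 was called positive, Apoltp at 0.91 ± 0.19, which lost its call without array 1.1, 1.2, 1.3, 2.1 or 2.4 and after centring and scaling, and the list spanned −1.10 to 0.91 with a median of 0.19. The lowest of the fat body list was Fbp1, at −1.10 ± 0.33 (limma adjusted p = 0.0868, negative on 6 of 7 arrays). Of 7 hemocyte, 5 gut and 4 muscle probes 0 were called by limma, with medians of 0.00054, −0.24 and −0.22. The part of these markers in the receptor ratios was not tested.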

How the data were processed

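The 10 receptor genes and the comparison lists were chosen with earlier results of these data known. The authors deposited 1 log ratio per probe and array, for 14569 probes, which is read here as log2. The sources used here name no log base, background correction or normalization. The base is an assumption: 2 values lie above 11.1, the most that the natural log of a 16-bit scanner reading can be. With another base, sizes change while signs and tests stay. Pearson's r across probes ran between 0.011 and 0.481 and Spearman's rho between −0.111 and 0.344 for the 12 array pairs of opposite dye orientation, against −0.0414 to 0.587 and −0.0326 to 0.493 for the 9 pairs of the same orientation. Since each r of opposite pairs was above 0, though the lowest rho was not, the ratios were taken as already turned to 1 direction. Per the labels of the channels, the cleaved sample was Cy5 on arrays 1.1, 1.2, 2.1 and 2.2, and Cy3 on 1.3, 2.3 and 2.4. The design text gives these counts the other way round.

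Probes were named through the platform annotation, updated with the RefSeq gene table of Release 6, by Entrez number (12011 probes), locus tag (410), accession (107), synonym (78), symbol (20) or merged names (7), with the file's symbol kept for 31. That gave 12664 probes with 1 gene, 89 with several and 1816 with none. All 14569 probes were tested against 0 by lmFit and eBayes of limma 3.58.1 (R 4.3.3) with a gene-wise dye term, with 5 residual and 3.04 prior degrees of freedom. No sample or probe was dropped. Control types were compared as a contrast of their separate effects. The fit was tried on simulated data with independent noise for each probe and array. That noise held no array-wide or dye-linked shifts, so it does not show how the fit behaves under them. The number of arrays limits the precision. Same-numbered arrays of the 2 control types deviated from their set means with correlations of 0.0327, 0.324 and −0.22 for numbers 1, 2 and 3. The highest correlation of each genomic Rad21 array with a transgenic Rad21 array of another number was 0.0175, 0.343 and 0.304. So few arrays cannot show whether a number marks a shared batch, and the labels do not say so. All probes of the 10 genes are named. List genes are named where they passed the test, with at most 3 others a list, and the 3 nearest genes for each receptor gene past it. The salivary gland markers are an exception, as all that were measured are named. Called neighbours on the chromosome were named after their values were seen.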

Additional observations from a re-analysis of the deposited data

Results flagged for a closer look

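The first Hr4 probe lay at −1.77 on array 2.4, far below its other 6 arrays, which ran between −0.44 and 0.46, and its gap to the nearest of them exceeded the critical value of Dixon's test. It was the 1 such value in 28 groups of arrays tested over the 14 probes, where chance alone gives about 1 in 20 groups. The second Hr4 probe was also lowest on that array, at −1.66, with −1.17 on array 2.3 next to it.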

How the results depend on the processing

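The log base, the numerator of the ratios and the signal behind each probe are unknown, and stock and cleavage cannot be told apart. Under the 6 other ways of fitting and the 7 omissions of an array, Hr78 and Eip78C kept their sign and their call, and ftz-f1 kept its sign. The ftz-f1 call was lost with median centring (0.77), centring and scaling (0.88) and equal weights for the control types (0.80), and the count of positive receptor probes was then 0, as it was at an adjusted p under 0.01. Leaving out 1 array gave ftz-f1 ratios between 0.67 and 0.90 and a count of 0 to 1. Calls were gained by Hr39 probe 3 with centring (−0.77), by Hr39 probe 1 without array 2.3 (−0.97), and by Hnf4 with array weights (−0.59). The cause of each was not tested.

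Signs that turned belonged to ratios not past the test. Hr38 probe 2 was −0.0052 with centring, −0.046 with centring and scaling, −0.051 without the dye term, −0.0054 with array weights and −0.0081 with equal weights for the control types, and ERR was 0.018 without the dye term. Without 1 array Hr4 probe 1 ran between −0.51 and 0.031, Hr38 probe 1 between −0.10 and 0.26, Hr38 probe 2 between −0.26 and 0.15 (turned also at −0.069 and −0.056), Hr96 between −0.059 and 0.17 (also −0.015), and ERR between −0.082 and 0.040 (also 0.0024 and 0.013).

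For genomic minus transgenic, where 0 receptor probes passed, centring gave −0.012 for Hr4 probe 1 and −0.0095 for Hr96, and the fit without the dye term gave 0.050 and 0.20 for Hr39 probes 1 and 3 and 0.026 for Hnf4. Whether the array numbers mark shared batches is not known. With the replicate block in place of the dye term the difference was −0.37 for Eip78C, −0.39 for Hr4 probe 1 and −1.51 for Hr3, with 0 probes of the array called after adjustment and 709 at an unadjusted p under 0.05, of which Hr3 was the 1 receptor probe (limma unadjusted p = 0.0201). Hr3 was also under 0.05 with centring (0.0298) and without array 2.3 (0.0426) or 2.4 (0.0109), and Hr4 probe 2 without array 2.2 (0.0383), none of them after adjustment. Without 1 array the difference ran between −0.68 and 0.87 for Eip78C (turned also at −0.23 and −0.37), −0.39 and 0.33 for Hr4 probe 1 (also −0.028, −0.29 and −0.080), −0.20 and 1.004 for Hr4 probe 2 (also −0.11), −0.54 and 0.30 for Hr38 probe 2 (also 0.18), −0.59 and 0.0044 for Hr39 probe 1, −0.69 and 0.065 for Hr39 probe 2 (also 0.036), −0.41 and 0.33 for Hr39 probe 3 (also 0.32 and 0.034), −0.094 and 0.61 for ftz-f1, −0.081 and 0.38 for Hr78 (also −0.071 and −0.0022), −0.23 and 0.36 for Hr96 (also −0.017, −0.16 and −0.13), and −0.30 and 0.13 for Hnf4 (also 0.0067 and 0.052).

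Of the 8 salivary gland probes, 1 to 3 were called negative and 0 to 1 positive over the alternatives fitted by probe, and of the 7 fat body probes 0 to 1 and 0 to 2. Over the whole array 1158 probes were called, 886 with centring and scaling, 1690 with array weights, and 724, 578, 661 and 515 without array 1.1, 1.2, 2.1 or 2.4. Among other ecdysone regulators the negative count was 2 with gene means, which merge probes, and 2 to 4 without 1 array, and the positive count was 1 with array weights and 0 to 1 without 1 array. Among coregulators the positive count was 1 with array weights and 0 to 1 without 1 array, as was the negative count without 1 array. In the fat oxidation list the positive count was 2 with centring and scaling or array weights, and 1 to 2 without 1 array.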
